A study of Mus musculus with 12 samples.

Results

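The vitamin D receptor gene Vdr, the retinoid X receptor genes Rxra, Rxrb and Rxrg, the hairless gene Hr and the cofactor genes Med1, Ncoa1 and Ncor1 were followed across the ear skin libraries of the series. The 8 genes were taken by symbol. All 8 were among the 23234 symbols listed in each library and among the 14059 genes that passed the filter on low values, at least 1 FPKM (a fragment level scaled for both transcript length and library size) in at least 3 of the 12 libraries.

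Expression had been measured by RNA sequencing in 4 groups of 3 libraries, all from ear skin of mice aged 8 to 12 weeks. The first group is of genotype K5-Cre;VDR f/f, and received 100 mg of Oxarol, an ointment of the active vitamin D3 analogue maxacalcitol, on the ear. It is called VDRcKO_Oxarol here. Wild-type C57BL/6J mice received the same ointment (WT_Oxarol), phosphate-buffered saline (WT_PBS) or nothing (WT_untreated), and treated ears were taken 1 day after application. In K5-Cre;VDR f/f mice the keratin 5 promoter drives Cre recombinase in basal keratinocytes and their descendants, hair follicle epithelium included, while dermal, immune and other cells without that promoter keep the floxed gene. The labels give no group of this genotype without ointment, no Cre-negative VDR f/f group and no ointment base without the drug, so genotype and response to ointment cannot be told apart in VDRcKO_Oxarol.

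The vitamin D receptor is a nuclear receptor that binds the active hormone, pairs with a retinoid X receptor (RXR) and sits on DNA at paired hexamer sites. The liganded pair recruits coactivators, among them the p160 protein encoded by Ncoa1 and the Mediator complex through the subunit encoded by Med1. Without ligand, nuclear receptors can hold corepressors such as the protein encoded by Ncor1. Hairless, the product of Hr, is a corepressor that binds the vitamin D receptor in skin. Mice that lack either Vdr or Hr lose their coat, because the follicles fail to enter a new growth phase after the first.

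The libraries differed in depth. Read numbers were judged from the steps in which low values change, relative to WT_PBS replicate 1. The VDRcKO_Oxarol libraries held 0.228 to 0.337 of its reads, the WT_Oxarol libraries 0.369 to 1.21, WT_PBS replicate 2 held 0.646, and the WT_untreated libraries 0.514 to 0.727. WT_PBS replicate 3 listed the most symbols above 0 (19478, against 17323 to 18413 in the other 11 libraries), but its steps did not fix its depth. Submitters' library codes form a low-numbered and a high-numbered series. The high-numbered, or second, series holds all 3 VDRcKO_Oxarol libraries and replicate 3 of WT_Oxarol, WT_PBS and WT_untreated. The other 6 wild-type libraries form the first. The labels do not call these series batches. WT_untreated replicate 1 was the lowest of the 12 libraries for Vdr, Hr and Rxra. The labels do not state that replicates are different mice, and every p-value therefore rests on a spread between libraries that may be technical. In whole ear skin, fewer cells of a type and less RNA per cell cannot be told apart.

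Cyp24a1, a standard target of the receptor whose product breaks down the active hormone, was used to check the labels. It stood at 0, 0.271 and 0.175 FPKM in VDRcKO_Oxarol and at 66.2, 599 and 458 FPKM in WT_Oxarol. WT_PBS had 0.0296, 0.023 and 0.013 FPKM, and WT_untreated had 0.372, 0.0203 and 0 FPKM. The WT_Oxarol libraries were the only 3 of the 12 above 1 FPKM. Its difference was -7.85 ± 0.62 on the log2(FPKM + 1) scale (moderated SE) between VDRcKO_Oxarol and WT_Oxarol (limma, adjusted p = 0.000689), and 8.02 ± 0.62 between WT_Oxarol and WT_PBS (adjusted p = 0.000566).

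Promoters of the 4 genes that differed between VDRcKO_Oxarol and WT_Oxarol are shown, so that the letters around their starts can be read beside their values. They come from RefSeq on GRCm38.p6, a later build than the mm9 named for these data, and run from 250 bases before to 50 after an annotated start. Capitals mark receptor hexamers and GC boxes on either strand. A hexamer was spelled AGGTCA, or GGGTCA as a variant. The letters AGTTCA also counted, and so did GGTTCA. A GC box was spelled GGGCGG. In the printed windows no hexamer overlapped a GC box.
Vdr: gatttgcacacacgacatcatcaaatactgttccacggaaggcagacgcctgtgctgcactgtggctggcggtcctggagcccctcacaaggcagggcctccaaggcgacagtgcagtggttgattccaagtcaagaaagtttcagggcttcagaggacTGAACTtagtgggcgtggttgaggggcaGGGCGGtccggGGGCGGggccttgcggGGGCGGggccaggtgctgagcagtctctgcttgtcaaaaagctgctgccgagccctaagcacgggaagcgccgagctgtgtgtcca
Rxrb: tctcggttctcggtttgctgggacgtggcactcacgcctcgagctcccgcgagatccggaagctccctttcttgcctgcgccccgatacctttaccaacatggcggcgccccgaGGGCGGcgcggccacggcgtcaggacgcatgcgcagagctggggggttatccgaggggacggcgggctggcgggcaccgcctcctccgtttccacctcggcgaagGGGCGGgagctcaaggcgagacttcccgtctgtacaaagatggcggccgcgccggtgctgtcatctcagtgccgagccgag
Med1: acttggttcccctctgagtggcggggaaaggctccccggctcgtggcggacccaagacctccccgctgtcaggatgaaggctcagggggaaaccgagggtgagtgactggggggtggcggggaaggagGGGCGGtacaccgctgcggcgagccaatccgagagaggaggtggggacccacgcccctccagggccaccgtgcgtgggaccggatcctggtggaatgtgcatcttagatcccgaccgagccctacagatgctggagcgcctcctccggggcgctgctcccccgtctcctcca
Ncoa1: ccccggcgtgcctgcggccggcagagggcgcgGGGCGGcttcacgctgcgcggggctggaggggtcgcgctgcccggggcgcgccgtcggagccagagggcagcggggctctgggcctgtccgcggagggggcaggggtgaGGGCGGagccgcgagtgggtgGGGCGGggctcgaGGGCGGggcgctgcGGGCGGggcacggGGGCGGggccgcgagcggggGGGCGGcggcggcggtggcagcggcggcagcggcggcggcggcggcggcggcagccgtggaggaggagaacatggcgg
The windows are chr15:97908247-97908546, minus strand, for Vdr, chr17:34031562-34031861, plus strand, for Rxrb, chr11:98192857-98193156, minus strand, for Med1, and chr12:4477133-4477432, minus strand, for Ncoa1. Vdr holds 1 hexamer, which begins at -91 from the start, and 3 GC boxes. Rxrb, Med1 and Ncoa1 hold no hexamer in these windows and 2, 1 and 7 GC boxes. Rxrb has a second entry, not printed, at chr17:34032100-34032399 on the plus strand, with no hexamer and 4 GC boxes. Of the 32851 promoters in the table, 43.7% hold at least 1 such hexamer and 35.7% at least 1 GC box. Only 0.0396% hold 2 of these hexamers in the same direction with 3 bases between them, the spacing the receptor pair prefers, and none of the 11 entries of the members did. Entries were found for 7 of the 8 members. A match is a description of letters, not of binding.

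Vdr, the receptor itself and the gene that the genotype targets, was higher in the libraries labelled VDRcKO_Oxarol than in any wild-type library. It stood at 23.6, 25.0 and 18.0 FPKM in VDRcKO_Oxarol, against 7.87, 6.68 and 7.05 FPKM in WT_Oxarol. The WT_PBS libraries had 9.28, 10.1 and 9.43 FPKM, and the WT_untreated libraries 4.87, 9.35 and 9.57 FPKM. The lowest VDRcKO_Oxarol library thus lay above the highest of the 9 wild-type libraries, as it did for 15.0% of all genes tested. The ratio of group means was 3.08 between VDRcKO_Oxarol (22.2 ± 3.72) and WT_Oxarol (7.20 ± 0.611 FPKM, SD, n = 3 each). On the log2(FPKM + 1) scale, which is used for every difference below, Vdr rose by 1.49 ± 0.21 (moderated SE, limma, adjusted p = 0.00558). It also rose against WT_PBS by 1.11 ± 0.21 (adjusted p = 0.00883) and against WT_untreated by 1.41 ± 0.21 (adjusted p = 0.00348). These 3 comparisons share the VDRcKO_Oxarol libraries.

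A gene-level value counts every exon in every cell type, and the labels do not say which exons are floxed, so the Vdr level checks neither the deletion nor the amount of working receptor. With the library code series as a term, Vdr rose by 1.41 against WT_Oxarol (adjusted p = 0.0316). In the second series alone the difference was 1.51 (adjusted p = 0.107, with 1 library in each wild-type group), and the 3 wild-type libraries there stood at 7.05 to 9.57 FPKM. Leaving out any single library gave 1.40 to 1.63.

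Within wild type, Vdr did not pass the test in any comparison. The WT_Oxarol libraries (6.68 to 7.87 FPKM) lay below the WT_PBS libraries (9.28 to 10.1 FPKM) without overlap, with a difference of -0.38 ± 0.21 (adjusted p = 0.787). Libraries that do not overlap in that direction were found for 8.36% of all genes. WT_Oxarol and WT_untreated overlapped (-0.08 ± 0.21, adjusted p = 0.898), as did WT_PBS and WT_untreated (0.30 ± 0.21, adjusted p = 0.665).

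**Figure D1:**
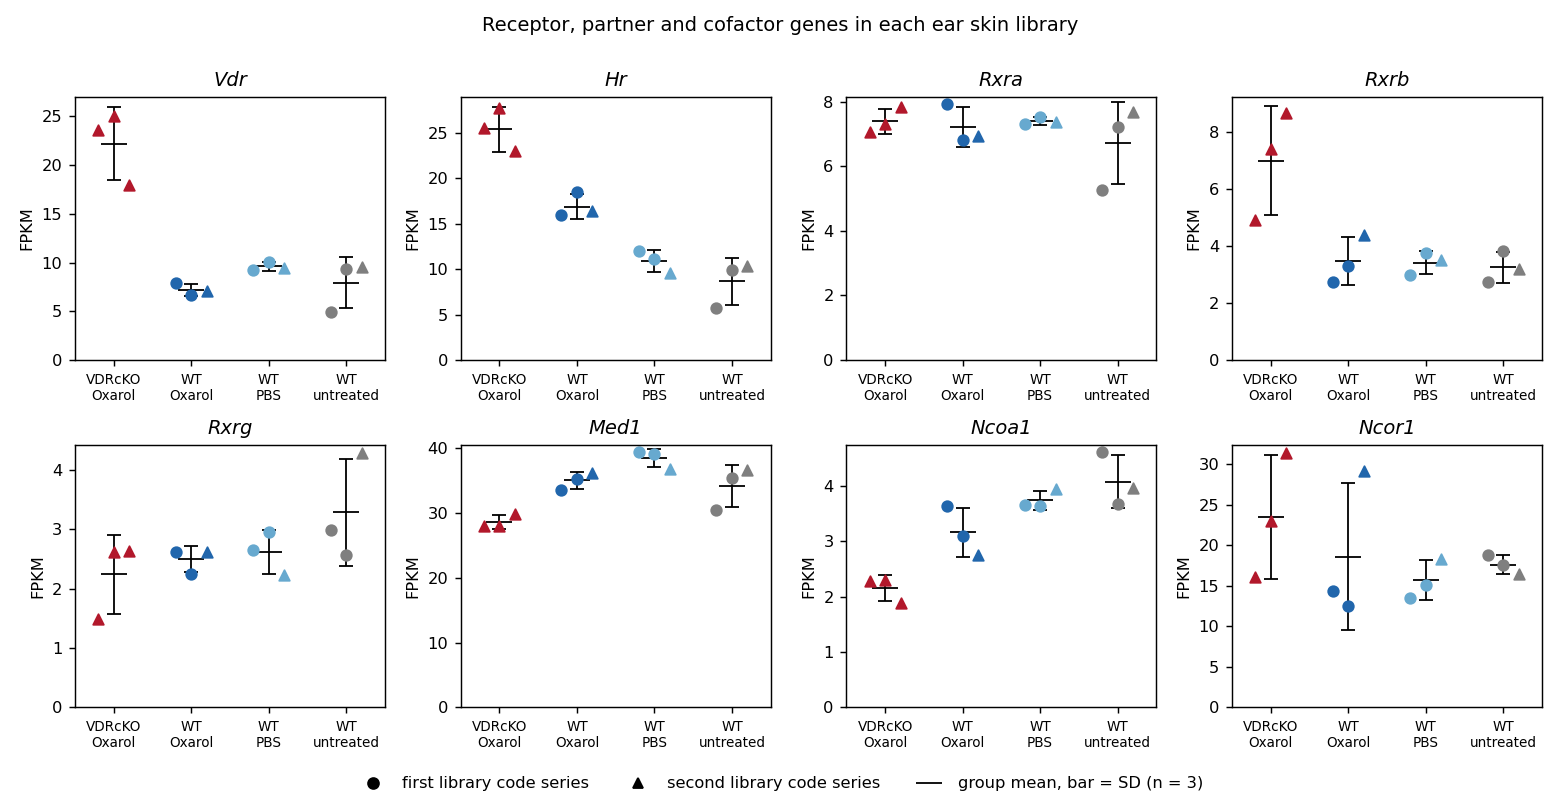
FPKM of the 8 genes in each of the 12 libraries (points, circles for the first and triangles for the second library code series), with group means and SD (n = 3). Vdr, Hr and Rxrb are higher, and Med1 and Ncoa1 lower, in all 3 VDRcKO_Oxarol libraries than in all 9 wild-type libraries. Of all genes tested, 15.0% are higher and 6.34% lower in this way.

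Hr, the hairless corepressor, was highest in VDRcKO_Oxarol and next highest in WT_Oxarol. It stood at 25.5, 27.8 and 23.0 FPKM in VDRcKO_Oxarol, 16.0, 18.5 and 16.4 FPKM in WT_Oxarol, 12.0, 11.1 and 9.59 FPKM in WT_PBS, and 5.71, 9.87 and 10.4 FPKM in WT_untreated. Neither ointment-treated group overlapped the other or any library without ointment (7.53% of all genes had WT_Oxarol above WT_PBS without overlap, and 8.97% had it above WT_untreated), while WT_PBS and WT_untreated overlapped. Relative to WT_untreated, Hr rose in WT_Oxarol by 0.93 ± 0.18 (limma, adjusted p = 0.0390), a ratio of group means of 1.96. Against WT_PBS the WT_Oxarol difference was 0.60 ± 0.18 and did not pass (adjusted p = 0.313). The 2 control groups differed by 0.33 ± 0.18 (WT_PBS minus WT_untreated, adjusted p = 0.592), and by 0.0884 without WT_untreated replicate 1.

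In VDRcKO_Oxarol Hr rose by 1.16 ± 0.18 against WT_PBS (adjusted p = 0.00463) and by 1.49 ± 0.18 against WT_untreated (adjusted p = 0.00183). Against WT_Oxarol the difference was 0.56 ± 0.18 (adjusted p = 0.0650), which missed the threshold, although the ranges did not overlap and the ratio of means was 1.50. For comparison, 27.9% of all genes had VDRcKO_Oxarol above WT_Oxarol without overlap. Array weights (adjusted p = 0.0111) and a fit of the 2 groups alone (adjusted p = 0.0170) took this difference past the threshold, as did leaving out WT_untreated replicate 1 (adjusted p = 0.00566) or replicate 3 (adjusted p = 0.0481). The WT_Oxarol rise over WT_untreated passed in 10 of 23 alternatives. Leaving out any 1 of the WT_Oxarol or VDRcKO_Oxarol libraries, WT_PBS replicate 1 or 2, or WT_untreated replicate 3 ended that call, with differences of 0.69 to 1.07 over all single libraries left out.

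Among the RXR genes, Rxra was the most abundant in 10 of 12 libraries and passed no test between groups. Rxra, the main RXR of epidermal keratinocytes, stood at 7.06, 7.29 and 7.82 FPKM in VDRcKO_Oxarol and 7.91, 6.80 and 6.93 FPKM in WT_Oxarol, a difference of 0.03 ± 0.12 (adjusted p = 0.874). WT_PBS had 7.31 to 7.53 and WT_untreated 5.27 to 7.69 FPKM. Between WT_Oxarol and WT_PBS the difference was -0.04 ± 0.12 (adjusted p = 1).

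Rxrb, a widely expressed RXR, was higher in VDRcKO_Oxarol. It stood at 4.92, 7.42 and 8.66 FPKM there, against 2.73, 3.30 and 4.39 FPKM in WT_Oxarol. Other wild-type libraries lay within 2.74 to 3.81 FPKM. No VDRcKO_Oxarol library overlapped any wild-type library, but WT_Oxarol replicate 3 came close to VDRcKO_Oxarol replicate 1. Of all genes tested, 15.0% likewise lay above every wild-type library. Rxrb rose by 0.83 ± 0.19 against WT_Oxarol (adjusted p = 0.0243), a ratio of means of 2.02, by 0.83 ± 0.19 against WT_PBS (adjusted p = 0.0201) and by 0.89 ± 0.19 against WT_untreated (adjusted p = 0.0137). The call against WT_Oxarol was lost in 8 of 21 alternatives: without a filter (adjusted p = 0.0504), with quantile normalization (0.64, adjusted p = 0.0513), with the library code series as a term (0.72, adjusted p = 0.114), in the second series alone (0.54, adjusted p = 0.381) and without VDRcKO_Oxarol replicate 2 (0.77) or 3 (0.68) or WT_Oxarol replicate 1 (0.70) or 2 (0.81). The series term also ended the calls against WT_PBS (0.73, adjusted p = 0.0952) and WT_untreated (0.79, adjusted p = 0.0595), as did the second series alone (0.79, adjusted p = 0.277, and 0.90, adjusted p = 0.193). The call against WT_PBS was further lost without VDRcKO_Oxarol replicate 2 or 3 or WT_PBS replicate 1 or 2 (6 of 21 alternatives in all), and that against WT_untreated with the 2 groups alone (3 of 21 in all). Between WT_Oxarol and WT_PBS, Rxrb differed by 0.00 ± 0.19 (adjusted p = 1).

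Rxrg, the RXR of skeletal muscle and some neurons, was the least abundant RXR in 10 of 12 libraries. It stood at 1.48, 2.62 and 2.63 FPKM in VDRcKO_Oxarol and 2.62, 2.24 and 2.62 FPKM in WT_Oxarol (-0.13 ± 0.18, adjusted p = 0.654). WT_PBS had 2.64, 2.95 and 2.22 FPKM, and WT_untreated 2.99, 2.57 and 4.28 FPKM. WT_Oxarol and WT_PBS differed by -0.04 ± 0.18 (adjusted p = 1). The highest value, in WT_untreated replicate 3, stood beside the highest muscle content: 18 skeletal muscle genes summed to 14800 FPKM there, against 3190 to 7580 FPKM in the other 11 libraries. The part of muscle in the Rxrg values was not tested.

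Rxrb took a larger share of the RXR transcripts in VDRcKO_Oxarol. Rxrb made up 36.5% to 45.3% of the summed FPKM of the 3 RXR genes in VDRcKO_Oxarol, 20.6% to 31.5% in WT_Oxarol, 23.1% to 26.8% in WT_PBS and 21.1% to 28.0% in WT_untreated. In VDRcKO_Oxarol replicates 2 and 3 Rxrb stood above Rxra. Vdr divided by the RXR sum was 0.941 to 1.75 in VDRcKO_Oxarol, 0.506 to 0.594 in WT_Oxarol, 0.712 to 0.719 in WT_PBS and 0.443 to 0.689 in WT_untreated. In FPKM, the 3 RXR genes together thus exceeded Vdr in every wild-type library and in 1 of 3 VDRcKO_Oxarol libraries. FPKM are scaled for transcript length, but levels of different genes can be set side by side only roughly. Since the Vdr level in VDRcKO_Oxarol does not give the amount of working receptor, neither do these ratios.

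**Figure D2:**
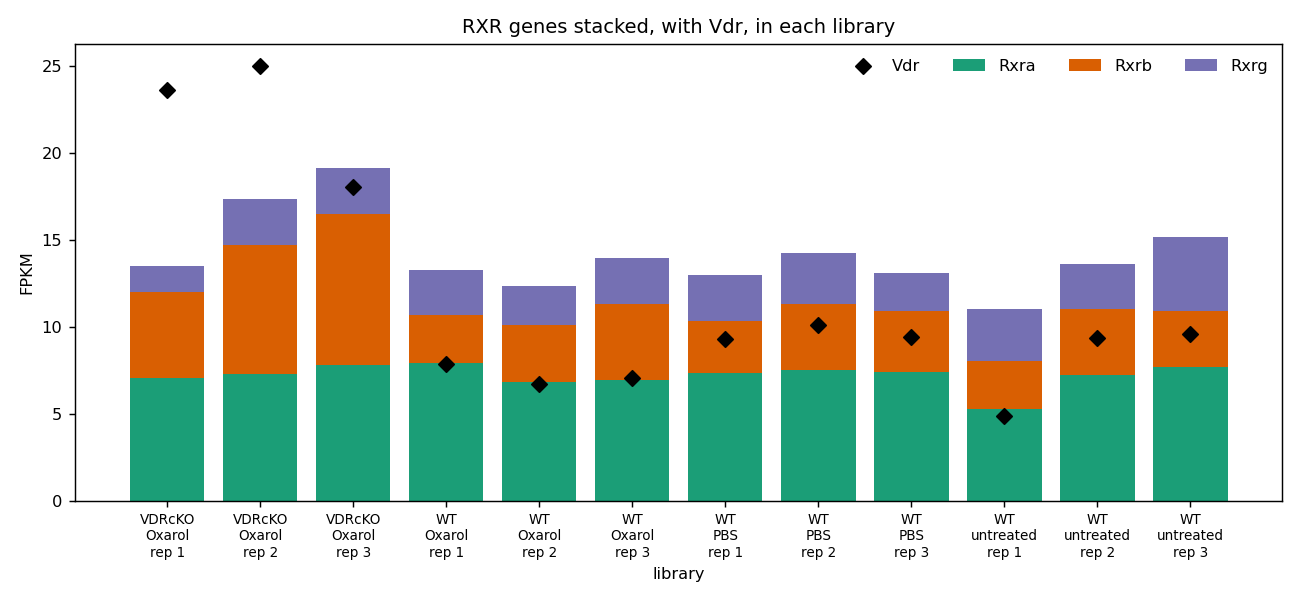
Stacked bars give the FPKM of Rxra, Rxrb and Rxrg in each of the 12 libraries, and black diamonds give Vdr in the same library. The diamond lies above the bar only in VDRcKO_Oxarol replicates 1 and 2.

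Med1 and Ncoa1, the coactivator genes among the members, went the other way. Med1, which encodes the Mediator subunit that contacts the liganded receptor and is required in mouse keratinocytes for normal hair and epidermal differentiation, was the most abundant of the 8 genes in 11 of 12 libraries. It stood at 27.9, 28.0 and 29.9 FPKM in VDRcKO_Oxarol, against 33.5, 35.2 and 36.2 FPKM in WT_Oxarol. WT_PBS had 39.4, 39.1 and 36.8 FPKM, and WT_untreated 30.5, 35.4 and 36.6 FPKM. All 3 VDRcKO_Oxarol libraries lay below all 9 wild-type libraries, as for 6.34% of all genes, though WT_untreated replicate 1 was only just above. Med1 fell by 0.28 ± 0.08 against WT_Oxarol (adjusted p = 0.0442) and by 0.41 ± 0.08 against WT_PBS (adjusted p = 0.0104). Against WT_untreated the difference was -0.25 ± 0.08 (adjusted p = 0.0552).

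Ncoa1, which encodes the p160 coactivator SRC-1, stood at 2.29, 2.31 and 1.88 FPKM in VDRcKO_Oxarol, against 3.63, 3.10 and 2.75 FPKM in WT_Oxarol. The other wild-type libraries had 3.64 to 4.61 FPKM, so VDRcKO_Oxarol was again below every one of them. Ncoa1 fell by 0.39 ± 0.11 against WT_Oxarol (adjusted p = 0.0433), by 0.59 ± 0.11 against WT_PBS (adjusted p = 0.00952) and by 0.68 ± 0.11 against WT_untreated (adjusted p = 0.00528). Non-overlap below all wild-type libraries was seen in 6.34% of genes.

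Both calls against WT_Oxarol lay close to the threshold. The Med1 call was lost in 13 of 22 alternatives (-0.37 to -0.26 over all of them) and the Ncoa1 call in 12 of 21 (-0.57 to -0.25), and leaving out any 1 VDRcKO_Oxarol library, WT_PBS library or WT_Oxarol replicate 1 or 2 ended both. Leaving out WT_Oxarol replicate 3 or WT_untreated replicate 2 also ended that of Med1. The library code series as a term ended both (Med1 -0.31, adjusted p = 0.111; Ncoa1 -0.36, adjusted p = 0.166), as did the second series alone (Med1 -0.33, adjusted p = 0.157; Ncoa1 -0.25, adjusted p = 0.378). A fit of the 2 groups alone ended that of Ncoa1 (adjusted p = 0.0637). Between WT_Oxarol and WT_PBS, Med1 differed by -0.13 ± 0.08 (adjusted p = 0.821) and Ncoa1 by -0.19 ± 0.11 (adjusted p = 0.800). For both genes the WT_Oxarol libraries lay below the WT_PBS libraries without overlap, as they did for 8.36% of all genes. Ncoa1 in WT_Oxarol differed from WT_untreated by -0.29 ± 0.11 (limma, adjusted p = 0.211). Its lower level in VDRcKO_Oxarol thus had the same direction as these uncalled wild-type differences.

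Ncor1, the corepressor gene, varied widely within VDRcKO_Oxarol and WT_Oxarol. It stood at 16.1, 23.0 and 31.3 FPKM in VDRcKO_Oxarol, 14.3, 12.5 and 29.1 FPKM in WT_Oxarol, 13.5, 15.1 and 18.3 FPKM in WT_PBS and 18.8, 17.6 and 16.4 FPKM in WT_untreated. Its 3 highest values came from VDRcKO_Oxarol replicates 2 and 3 and WT_Oxarol replicate 3. All 3 are shallow libraries of the second code series, with 0.272, 0.337 and 0.369 of the reads of WT_PBS replicate 1. VDRcKO_Oxarol replicate 1, shallower still at 0.228, had 16.1 FPKM, and the part of depth or series in these values was not tested. VDRcKO_Oxarol minus WT_Oxarol was 0.37 ± 0.29 (adjusted p = 0.408), which turned to -0.35 in the second series alone. WT_Oxarol minus WT_PBS was 0.15 ± 0.29 (adjusted p = 1), and -0.21 without WT_Oxarol replicate 3.

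Over the 8 genes, the comparison of VDRcKO_Oxarol with WT_Oxarol thus had 2 higher calls (Vdr, Rxrb) and 2 lower calls (Med1, Ncoa1), beside 13.1% of all 14059 genes called. The member median was 0.20, against 0.08 over all genes. The direction of calls over all genes depended on scaling: 1225 were higher and 623 lower, while quantile normalization gave 820 higher and 1292 lower and moved the median of all genes to -0.04. Relative to that median, Vdr stood at 1.41 and at 1.44 with quantile normalization, Rxrb at 0.75 and 0.68, Med1 at -0.36 and -0.29 and Ncoa1 at -0.47 and -0.53. Against WT_PBS 5 members were called (16.3% of all genes) and against WT_untreated 4 (19.0% of all genes). Scaling split those calls in the same way. Against WT_PBS there were 1514 higher and 772 lower, and 968 higher and 1620 lower with quantile normalization. Against WT_untreated there were 1796 higher and 872 lower, and 1215 higher and 1849 lower.

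By contrast, the wild-type comparisons called few genes. WT_Oxarol against WT_PBS called none of the 8 members and 43 of all genes (0.306%), with 1 member, Hr, and 1047 of all genes at an unadjusted p under 0.05. WT_Oxarol against WT_untreated called Hr alone (1.31% of all genes), and WT_PBS against WT_untreated called no member (0.00711% of all genes, with 0 members and 1312 of all genes at an unadjusted p under 0.05).

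**Figure D3:**
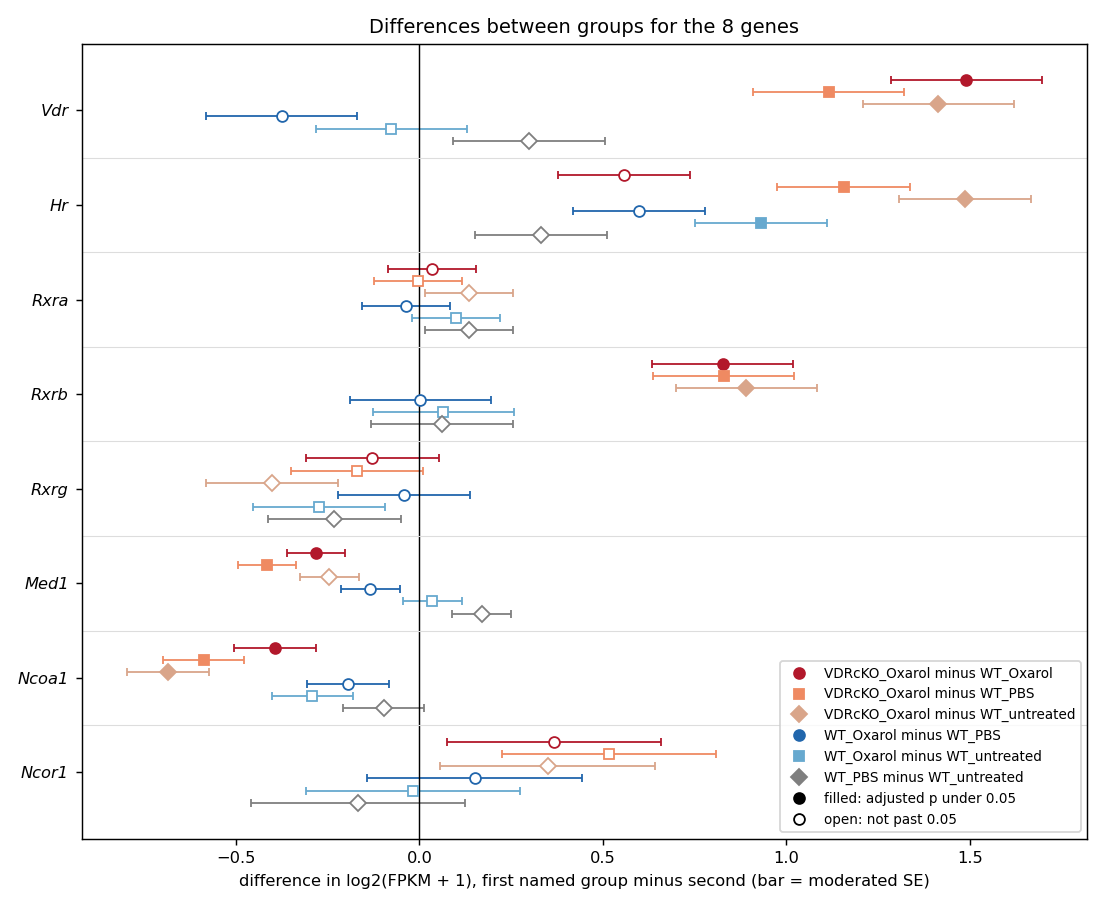
Differences in log2(FPKM + 1) for the 8 genes in 6 comparisons, first named group minus second, with moderated standard errors; filled symbols have an adjusted p under 0.05. The 3 VDRcKO_Oxarol comparisons of Vdr lie between 1.11 and 1.49, and those of Ncoa1 between -0.68 and -0.39.

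Vdr and Hr are both known to act in the hair follicle. All 22 hair shaft and inner root sheath genes had a difference above 0 in VDRcKO_Oxarol against WT_Oxarol (median 3.68), with 17 called higher and 0 lower. All 10 stem cell and outer root sheath genes were above 0 as well, with 5 called higher. Of all genes tested, 8.71% were called higher between these 2 groups. The summed level of the 22 genes was 411 to 1640 FPKM in VDRcKO_Oxarol, 30.8 to 115 FPKM in WT_Oxarol, 51.4 to 522 FPKM in WT_PBS and 59.5 to 259 FPKM in WT_untreated. Within wild type, where Hr stood higher with ointment, the list median was -0.64 for WT_Oxarol minus WT_PBS and -0.35 for WT_Oxarol minus WT_untreated, with 2 of 22 genes above 0 and 0 called in each. None of the 22 was at 0 in VDRcKO_Oxarol, while Krt31, Krt33a, Krt34, Krt35, Krt81 and Krt82 were listed at 0 in WT_Oxarol replicate 3. VDRcKO_Oxarol replicate 3, at 411 FPKM, had fewer of these transcripts than WT_PBS replicate 3, at 522 FPKM. Vdr was 18.0 and Hr 23.0 FPKM in that VDRcKO_Oxarol library, against 9.43 and 9.59 FPKM in that WT_PBS library. The stem cell and outer root sheath genes, however, summed to 518 FPKM in that VDRcKO_Oxarol library and to 335 FPKM in that WT_PBS library. The part of hair follicle content in the Vdr and Hr values was not tested.

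Genes that mark some other skin and ear cells moved as well between VDRcKO_Oxarol and WT_Oxarol, where 8.71% of all genes were called higher. Fibroblast genes had 5 of 9 called higher, with sums of 3190 to 3900 FPKM in VDRcKO_Oxarol against 2080 to 2740 FPKM in WT_Oxarol. Cartilage genes had 7 of 10 called higher (183 to 192 FPKM in VDRcKO_Oxarol against 80.3 to 122 FPKM in WT_Oxarol). Macrophage genes had 5 of 9 called higher (661 to 875 FPKM in VDRcKO_Oxarol against 374 to 484 FPKM in WT_Oxarol). Other lists had few calls. Sebaceous gland genes had 0 of 8 called higher and 1 lower, and melanocyte genes 1 of 8 higher and 1 lower. Adipocyte genes had 0 of 10 called, with 9 above 0. Basal keratinocyte genes, which mark the cells that K5-Cre targets, had 0 of 8 called, with sums of 3000 to 3250 FPKM in VDRcKO_Oxarol and 2830 to 4030 FPKM in WT_Oxarol. Their sums were 3700 to 4380 FPKM in WT_PBS and 3690 to 4500 FPKM in WT_untreated, above those of VDRcKO_Oxarol. Against each of these groups 1 of the 8, Krt15, was called lower in VDRcKO_Oxarol. Krt15 was also called lower in WT_Oxarol against WT_untreated, so this call is not particular to VDRcKO_Oxarol. The mean log2(FPKM + 1) of the 8 genes was 6.56 to 6.69 in VDRcKO_Oxarol. That lies within the range of WT_untreated (6.49 to 6.82) and below that of WT_PBS (6.75 to 6.88). The part of these components in the Vdr, Hr and Rxrb values was not tested.

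**Figure D4:**
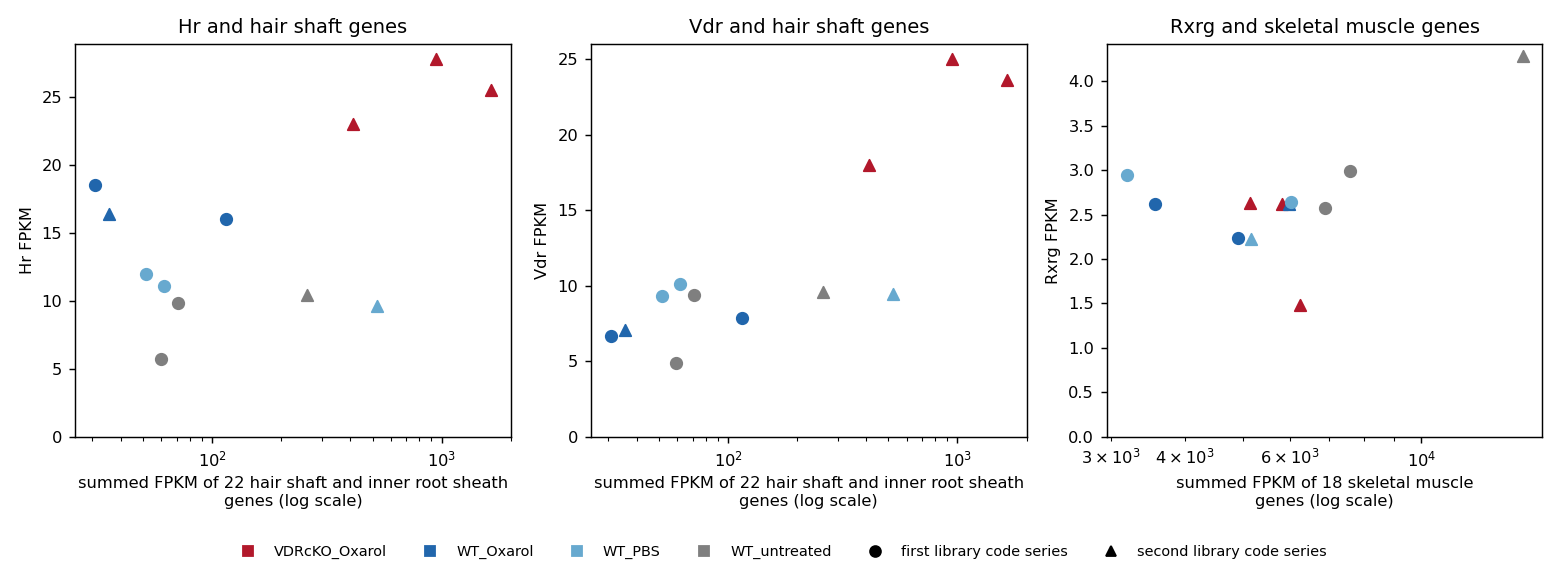
Hr and Vdr against the summed FPKM of 22 hair shaft and inner root sheath genes, and Rxrg against that of 18 skeletal muscle genes, in the 12 libraries (log horizontal axes, colours for groups, marker shapes for library code series). WT_PBS replicate 3 has the highest hair gene sum of the wild-type libraries (522 FPKM), with Hr at 9.59 and Vdr at 9.43 FPKM. The part of hair follicle content in the Hr and Vdr values was not tested.

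Further genes of the receptor pathway were called one by one, beside 13.1% of all genes called between VDRcKO_Oxarol and WT_Oxarol. How the calls of pathway list genes in this comparison fared under the alternatives is not reported here. With the library code series as a term, 283 of all genes were called, against 1848 in the reported fit. Of 11 tested RXR partner receptors, 9 had a difference above 0 between VDRcKO_Oxarol and WT_Oxarol (median 0.27), with 1 called higher and 1 lower. Thra, a thyroid hormone receptor gene, rose by 0.42 ± 0.12 to 21.3 ± 1.38 FPKM, against 15.7 ± 2.12 FPKM in WT_Oxarol (SD, n = 3 each, limma, adjusted p = 0.0429). Thrb, which encodes the other thyroid hormone receptor, fell by 0.49 ± 0.12 to 6.57 ± 1.10 FPKM, against 9.59 ± 0.58 FPKM (adjusted p = 0.0297). Of 22 other coactivators 12 had a difference above 0 (median 0.06), and only Prmt1, an arginine methyltransferase, was called. Prmt1 had 94.4 ± 7.70 FPKM in VDRcKO_Oxarol and 143 ± 17.5 FPKM in WT_Oxarol (-0.59 ± 0.12, limma, adjusted p = 0.0187). In VDRcKO_Oxarol against WT_PBS or WT_untreated, Thra was called in neither. Thrb was called lower against WT_untreated alone, and Prmt1 lower against WT_PBS alone.

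Among genes of corepressor complexes, the histone deacetylase genes Hdac5 (1.01 ± 0.29, adjusted p = 0.0438) and Hdac7 (0.61 ± 0.17, adjusted p = 0.0396) rose. Lcor, a ligand-dependent corepressor gene, fell by 0.37 ± 0.10 (adjusted p = 0.0353). Hdac5 stood at 18.2 to 21.2 FPKM in VDRcKO_Oxarol and 8.38 to 9.90 FPKM in WT_Oxarol. Hdac7 averaged 3.90 FPKM in VDRcKO_Oxarol, 2.23 in WT_Oxarol and 3.39 in WT_PBS. In VDRcKO_Oxarol against WT_PBS or WT_untreated, Hdac7 and Lcor were called in neither, and Hdac5 was called higher against WT_untreated alone. Of 30 tested Mediator subunits other than Med1, Med8 alone was called, at 27.6 to 29.3 FPKM in VDRcKO_Oxarol and 34.5 to 41.2 FPKM in WT_Oxarol (-0.41 ± 0.09, adjusted p = 0.0206), with a list median of 0.02. Of all genes, 8.71% were called higher and 4.43% lower in this comparison. Med8 was also called lower in VDRcKO_Oxarol against WT_PBS and against WT_untreated.

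Between WT_Oxarol and WT_PBS no gene was called among the RXR partners, the coactivators, the Mediator subunits or the corepressor genes named here. The smallest p-values belonged to Ppara (0.14 ± 0.10, adjusted p = 0.906), Ncoa4 (0.34 ± 0.10, adjusted p = 0.282), Hdac7 (-0.45 ± 0.17, adjusted p = 0.493) and Med4 (-0.44 ± 0.13, adjusted p = 0.302). Hairless is known in mice to repress secreted Wnt antagonists, of which 5 of 8 listed were tested. Sfrp1 rose in WT_Oxarol against WT_PBS by 1.03 ± 0.18 (limma, adjusted p = 0.0451), with 21.6 to 31.5 FPKM in WT_Oxarol and 10.2 to 14.2 FPKM in WT_PBS. That call lay close to the threshold, and a fit of these 2 groups alone called 0 of all genes. Sostdc1, which encodes the antagonist Wise and is a known target of hairless repression, stood at 85.3 to 104 FPKM in VDRcKO_Oxarol and 60.0 to 82.0 FPKM in WT_Oxarol (0.39 ± 0.15, adjusted p = 0.107). Both Sfrp1 and Sostdc1 were called higher in VDRcKO_Oxarol against WT_PBS and against WT_untreated.

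Likeness of pattern was measured as the root mean square difference between 2 genes over the 12 libraries, each gene as log2(FPKM + 1) minus its own mean. The 5 genes nearest to Vdr were Col8a2 (0.155), Bag6 (0.182), Egr2 (0.185), Ptpn23 (0.198) and Rnf44 (0.201), while Vdr itself varied about its mean by 0.638. Col8a2 averaged 17.8 FPKM in VDRcKO_Oxarol, 5.64 in WT_Oxarol, 7.31 in WT_PBS and 5.90 in WT_untreated, the same order of group means as Vdr. WT_untreated and WT_Oxarol, the lowest in that order, did not differ beyond their spread for Vdr. Of the other members, Rxrb was nearest to Vdr (0.391, rank 544) and Hr next (0.438, rank 1029).

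The 5 genes nearest to Hr were Bak1 (0.166), Fam43a (0.187), Flna (0.192), Impdh1 (0.196) and Il4ra (0.209), with Hr itself at 0.602. Bak1 averaged 10.3 FPKM in VDRcKO_Oxarol, 7.76 in WT_Oxarol, 5.33 in WT_PBS and 3.93 in WT_untreated, the group order of Hr. All 10 of these nearest genes, like Vdr and Hr, had their lowest value in WT_untreated replicate 1. Bak1 was 2.06 FPKM there, against 4.47 and 5.25 FPKM in the other WT_untreated libraries. The 10 genes were picked for likeness over these same libraries. The shared low library and the group orders of Col8a2 and Bak1 are therefore built into that choice and are no separate finding. Ncoa1 was the member least like Hr (0.865, rank 13439) and least like Vdr (0.872, rank 13336) of the 14059 genes.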

How the data were processed

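Ear skin RNA was isolated in TRIzol LS, and NEBNext Ultra libraries were sequenced, as the labels' protocols state. The build mm9 and the tools Cufflinks 2.1.1, TopHat2 2.0.8 and Bowtie2 2.1.0 are named, without roles, per the submitters' processing notes. The authors deposited 1 value per gene symbol and library, taken as FPKM from Cufflinks and the range of the values, since the file headers name no unit. Read counts were not used here, and strandedness is not given. Replicates were numbered here by accession, so a shared number links no libraries.

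The test was limma 3.58.1 (R 4.3.3) with an intensity trend, run on log2(FPKM + 1) for the 14059 genes past the filter. A single fit held the 4 groups and left 8 residual degrees of freedom. P-values were adjusted by Benjamini-Hochberg over all genes tested in each of 6 comparisons, at 0.05. A pseudocount of 1 understates changes of low genes such as Rxrg and Ncoa1. The 8 members and all gene lists were chosen with earlier results of these data known. Named genes were the members, the 5 nearest patterns of Vdr and Hr, and up to 3 called genes of each pathway list by adjusted p, or the smallest p where none was called. Cyp24a1 checked the labels. The counts of the corepressor list are not reported here. Alternatives were another pseudocount (0.1), median-of-ratios scaling, quantile normalization, no filter, a filter of 5 FPKM, each pair of groups fitted alone, the library code series, robust variance, array weights and leaving out each library. Relative read numbers came from the commonest ratio of values between 0.001 and 0.3 FPKM in pairs of libraries, and a factor of 2 remains possible. Figures used Python 3.11.15 and matplotlib 3.10.9.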

Additional observations from a re-analysis of the deposited data

How the results depend on the processing

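The direction of Vdr, Rxrb, Hr, Med1 and Ncoa1 in the VDRcKO_Oxarol differences tallied held in every alternative that was run and could test them. Of 640 values recomputed for 29 member differences, 548 kept direction and side of the threshold, 64 calls were lost and 6 were gained. The other 22 changed sign, all among differences that had not passed. The 29 are every member in VDRcKO_Oxarol minus WT_Oxarol and in WT_Oxarol minus WT_PBS, Vdr and Hr in all comparisons, and any other called difference. Uncalled differences of the remaining members in the other comparisons are left out, so calls gained there are missing from this tally. Against WT_Oxarol, 4 members were called, and 2 without a filter, 2 with a filter of 5 FPKM (which removes Rxrb, Rxrg and Ncoa1), 1 with the library code series as a term and 0 in the second series alone, which has 2 residual degrees of freedom. Array weights gave 5, and leaving out 1 library gave 1 to 5. Against WT_PBS, 5 were called, 4 with the series term, 3 with 5 FPKM, 0 in the second series and 3 to 5 without 1 library. Against WT_untreated, 4 were called, 3 with the series term, 2 with 5 FPKM and 0 in the second series. WT_Oxarol against WT_untreated called 1 member (Hr), and 0 without a filter, with the 2 groups alone, in either series alone and in the lowest of the fits without 1 library. WT_Oxarol against WT_PBS called 0, and 1 (Hr) with array weights or without WT_untreated replicate 1. Some settings gave more calls for VDRcKO_Oxarol against WT_untreated: 6 members with quantile normalization, and 5 with median-of-ratios scaling or with array weights. The cause of these losses and gains was not tested. Some of the alternatives also held fewer libraries or genes. The number of all genes called ranged from 53 to 3648 for VDRcKO_Oxarol minus WT_Oxarol (1848 in the reported fit), 86 to 5427 for VDRcKO_Oxarol minus WT_PBS (2286), 104 to 3346 for VDRcKO_Oxarol minus WT_untreated (2668), 0 to 360 for WT_Oxarol minus WT_PBS (43), 12 to 561 for WT_Oxarol minus WT_untreated (184) and 1 to 85 for WT_PBS minus WT_untreated (1).

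Signs turned as follows. VDRcKO_Oxarol minus WT_Oxarol for Rxra became -0.14 with quantile normalization, -0.0433 with median-of-ratios scaling and -0.0101 with the series as a term, and ranged from -0.0031 to 0.0936 without 1 library. Ncor1 became -0.35 in the second series, and Rxrg ranged from -0.22 to 0.0547 without 1 library. WT_Oxarol minus WT_PBS for Rxrb became -0.0005 with median-of-ratios scaling and -0.12 in the first series, and ranged from -0.14 to 0.13. Ncor1 became -0.0927 in the first series and ranged from -0.21 to 0.37. Rxrg became 0.17 in the second series and ranged from -0.12 to 0.0273, and Rxra ranged from -0.10 to 0.0003. Vdr in WT_Oxarol minus WT_untreated became 0.0824 in the first series and ranged from -0.35 to 0.0703. WT_PBS minus WT_untreated in the second series was -0.019 for Vdr and -0.11 for Hr.

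No paired analysis was possible because the labels give no replicate numbers. Read depth is known only relative to other libraries, so no counting interval is given.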
